A study of Mus musculus and Homo sapiens with 12 samples.

Results

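The 10 genes described here belong to the NF-kB and inflammatory response: 6 regulators and 4 targets. The regulators were the subunits NFKB1, NFKB2, RELA and RELB and the inhibitors NFKBIA and TNFAIP3, and the targets were the cytokines IL6, CXCL8 and CCL2 and the enzyme PTGS2. They were chosen by name out of 20007 protein-coding genes in the human annotation, and 9 of them were found by name among 21887 protein-coding genes of the mouse annotation, which holds no Cxcl8. For each gene, the regions that lay in the gene or within 10 kb of either end were taken from 12 CUT&Tag libraries.

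CUT&Tag maps a chromatin mark by directing a transposase to the antibody that binds it. The antibodies recognised butyryl lysine (Kbu) at lysine 18 of histone H3 (H3K18bu) and lysine 12 of histone H4 (H4K12bu), or acetyl lysine (Kac) at the same residues (H3K18ac and H4K12ac). Of the libraries, 4 came from CCD841, a line labelled as epithelial, from normal human colon, after 1 mM sodium butyrate for 12 to 16 h, with 2 replicates each for H3K18bu and H4K12bu. The other 8 came from the large intestine of male CETP-ApoB-100 transgenic mice, with 2 replicates for each of the 4 marks, and are labelled as colon epithelium although the methods describe the whole dissected tissue. By their labels, the Kac libraries came from mice on high fat and high sucrose chow, and the Kbu libraries from mice whose chow also held 5% arabinoxylan, a cereal fiber. Diet and acyl group therefore changed together and cannot be told apart in the mouse, and the study's methods can also be read as arabinoxylan for every mouse on that diet. The labels do not say that replicates came from separate cultures or animals, and no library of untreated CCD841 cells was analysed here.

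NF-kB is a family of transcription factors built as dimers of REL-type subunits. In resting cells the dimers are held in the cytoplasm by IkB proteins such as NFKBIA. Signals from cytokine receptors and Toll-like receptors lead to the destruction of the inhibitor, and the freed dimers bind kappa-B sites near the genes of cytokines, chemokines and enzymes. NFKBIA and TNFAIP3 are also targets of NF-kB and limit the response they belong to. In the colon the pathway is known for its part in inflammation.

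A region here is 1 or more overlapping listed peaks merged in a library, and a shared region is one found in both replicates of a mark, with an overlap of at least 1 base. The pileup is the highest number of fragments stacked in the peak, worked out from the authors' fold and p, and the fold is that pileup over the local background, each raised by 1. The CCD841 lists held 299296 to 299720 peaks with a median pileup of 15 and 12 for H3K18bu and 15 and 7 for H4K12bu. The mouse Kac lists held 299623 to 299861 peaks with a median pileup of 1 or 2, and the mouse Kbu lists held 50675 to 96432 peaks, of which 89.2% to 91.4% had a pileup of 1. The CCD841 and mouse Kac lists were all of about the same length, between 299296 and 299861 peaks, while their lowest −log10 p ran from 2.01 to 5.31, against 2.01 in each of the shorter Kbu lists, so weaker peaks are missing to a different extent in each library. A CCD841 region of a member thus had several to many fragments stacked at its highest point, and a mouse Kbu region mostly 1. The pileup is not the number of all fragments in a region. In bulk samples, fewer cells with a mark and less of the mark per cell cannot be told apart.

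The sequences upstream of 5 members are shown because shared H3K18bu regions lay at the start sites of the first 3 and at neither of the other 2. Each is read 5′ to 3′ on the gene's strand from GRCh38, from 250 bases before the start site of the canonical GENCODE transcript up to the first base of the window that an annotated transcript uses as a UTR. Capitals mark matches to the kappa-B motif (10 bases, searched on both strands). The windows are NFKB1, chr4:102501109-102501329 (+); TNFAIP3, chr6:137867009-137867213 (+); PTGS2, chr1:186680424-186680673 (-); IL6, chr7:22726950-22727146 (+); and CXCL8, chr4:73740319-73740518 (+).
NFKB1: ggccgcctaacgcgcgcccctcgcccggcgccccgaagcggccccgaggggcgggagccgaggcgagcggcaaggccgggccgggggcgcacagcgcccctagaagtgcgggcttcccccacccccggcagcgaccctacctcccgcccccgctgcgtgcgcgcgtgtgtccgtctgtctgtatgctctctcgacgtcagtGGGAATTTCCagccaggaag
TNFAIP3: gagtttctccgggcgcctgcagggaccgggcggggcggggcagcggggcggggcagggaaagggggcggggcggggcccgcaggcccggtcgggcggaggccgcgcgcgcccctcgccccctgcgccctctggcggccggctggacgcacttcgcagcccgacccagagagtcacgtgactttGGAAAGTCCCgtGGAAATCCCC
PTGS2: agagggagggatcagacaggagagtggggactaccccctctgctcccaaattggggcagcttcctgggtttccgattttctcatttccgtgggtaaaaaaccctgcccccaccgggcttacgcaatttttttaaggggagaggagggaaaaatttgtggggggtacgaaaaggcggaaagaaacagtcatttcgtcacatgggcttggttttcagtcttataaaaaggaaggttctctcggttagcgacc
IL6: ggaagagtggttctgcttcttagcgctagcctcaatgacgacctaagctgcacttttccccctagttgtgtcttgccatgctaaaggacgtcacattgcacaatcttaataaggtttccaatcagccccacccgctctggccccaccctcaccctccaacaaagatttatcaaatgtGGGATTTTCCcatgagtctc
CXCL8: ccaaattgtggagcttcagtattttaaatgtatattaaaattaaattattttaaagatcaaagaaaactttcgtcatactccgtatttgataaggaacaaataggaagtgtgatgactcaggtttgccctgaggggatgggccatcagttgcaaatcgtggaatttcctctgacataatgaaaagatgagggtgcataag

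In the 250 bases before the start site, 5 of the 9 members searched had a match to the motif, against 5.88% of 20006 protein-coding genes. NFKB2 and TNFAIP3 had 2 matches each, and NFKB1, NFKBIA and IL6 had 1. The matches began 49 bases before the start site in NFKB1, 67 and 55 in TNFAIP3, and 73 in IL6. RELA, CXCL8, CCL2 and PTGS2 had none in this window, which says only that these letters were not there. Members with and without a match were both found among the genes with a shared region at the start site. In the mouse, RefSeq promoters (GRCm38.p6) were held for 6 of the 9 members. Of these, 4, Nfkb2, Nfkbia, Tnfaip3 and Il6, had a match in the 250 bases of at least 1 promoter. Over all 32851 promoters the share was 3.9%, which is counted per promoter and not per gene. Nfkb2 and Tnfaip3 have more than 1 promoter, so the counts are not in the same unit.

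In CCD841, shared H3K18bu regions were found at 9 of the 10 members, with CXCL8 as the exception. Of all protein-coding genes, 75.9% had one. Shared H4K12bu regions were found at the same 9 members (7 at q below 0.05), against 76.6% of all genes. These shares depend on the length of the gene, and among the genes whose window was at most 30 kb long, 56% had a shared H3K18bu region and 55.4% a shared H4K12bu region. Within 1 kb of the start site, 4 of 10 members had a shared H3K18bu region, against 32.7% of all genes, and 1 of 10 had a shared H4K12bu region, against 14.9%.

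**Figure D1:**
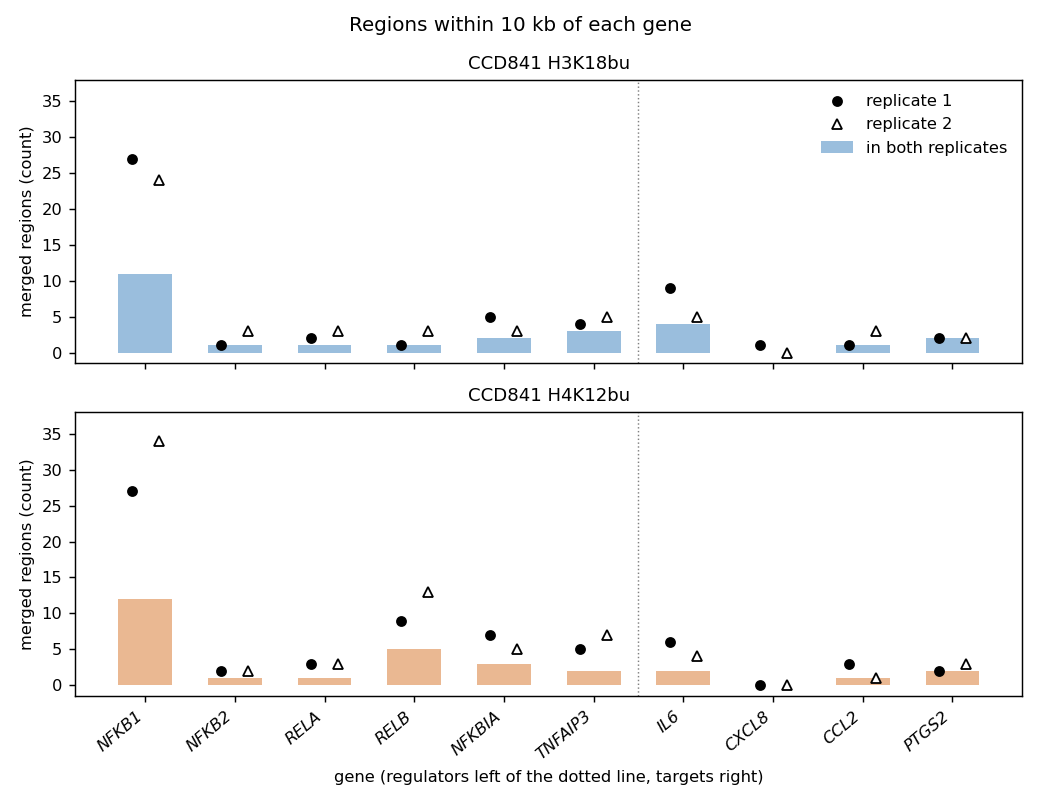
Merged regions within 10 kb of each member (y axis, count) in the CCD841 libraries, with points for replicates 1 and 2 and bars for the regions found in both. CXCL8 stands at 1 and 0 H3K18bu regions and at 0 H4K12bu regions in both replicates.

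NFKB1, the longest member (chr4:102501330-102617302, + strand), encodes the p105 precursor of the p50 subunit. Its window of 136.0 kb held 27 and 24 H3K18bu regions in replicates 1 and 2, and 11 shared regions. For H4K12bu the counts were 27 and 34, with 12 shared regions, not all of them with q below 0.05 in both replicates. Per length, these were 0.809 shared H3K18bu regions and 0.883 shared H4K12bu regions per 10 kb, against 0.476 and 0.511 over all genes. A pair of shared H3K18bu regions lay on both sides of the start site, at chr4:102500716-102500974 (fold 5.47 and 4.27) and chr4:102501511-102502267 (fold 4.95 and 4.74). The first of these overlapped a long non-coding gene on the other strand, ENSG00000260651. The stretch printed above for NFKB1, with its motif match, lies between the pair and in neither of these shared regions. H4K12bu shared none this close to the start. Its nearest shared region was intronic, 8631 bp downstream. It overlapped a shared H3K18bu region, as did the next shared H4K12bu regions at 16669 and 23500 bp. The H4K12bu region with the highest pileup (41 and 17 fragments) was intronic, 113434 bp from the start site, and overlapped no shared H3K18bu region.

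RELB, which encodes the partner of p52 in the alternative pathway (chr19:45001461-45038192, + strand), was the member in which the marks differed most in count. Replicates 1 and 2 held 1 and 3 H3K18bu regions and 9 and 13 H4K12bu regions. Only 1 H3K18bu region was shared, at chr19:45001728-45002296, 548 bp downstream of the start site (fold 6.61 and 5.94). The 5 shared H4K12bu regions lay elsewhere: 2 in exons, 1 in an intron and 2 upstream, of which the one at 10246 bp overlapped the neighbouring gene CLPTM1. None of the 5 overlapped the H3K18bu region, and the one in CLPTM1 did not have q below 0.05 in both replicates. Over all genes H4K12bu regions were also the more frequent, 1.27 against 0.963 per 10 kb as the mean of the replicates. With 2 libraries for each mark the smallest p of a two-sided exact test is 0.333, and the difference was not tested.

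NFKB2, which encodes the precursor of p52, and RELA, which encodes the p65 subunit, held few regions. NFKB2 had 1 and 3 H3K18bu regions and 2 and 2 H4K12bu regions. The region shared by the replicates of each mark lay downstream of NFKB2, inside the gene PSD. That of H4K12bu did not have q below 0.05 in both replicates. RELA had 2 and 3 H3K18bu regions and 3 and 3 H4K12bu regions. Its shared regions lay downstream, 10327 bp from the start site for H3K18bu and 12269 bp for H4K12bu, the latter inside the gene SIPA1. Neither gene had a region of any CCD841 library within 1 kb of its start site. With 0.352 and 0.339 shared H3K18bu regions per 10 kb, both lay close to the median of all genes (0.378).

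The inhibitor genes carried shared regions of both marks. NFKBIA, which encodes IkB-alpha (chr14:35401079-35404749, - strand), had 5 and 3 H3K18bu regions and 7 and 5 H4K12bu regions, of which 2 and 3 were shared. None lay at its start site. The strongest was downstream, 13794 bp from the start site, at chr14:35390425-35391486. The H3K18bu fold there was 9.16 and 7.88, with pileups of 48 and 33, and the H4K12bu fold was 6.85 and 4.64, with pileups of 34 and 12. The pileup of 48 was the highest of the 26 shared H3K18bu regions of the members. A further region of both marks lay 8586 bp upstream (H3K18bu fold 5.11 and 5.40). Neither region overlapped another annotated gene. The third shared H4K12bu region lay 5565 bp downstream of the start site, without a shared H3K18bu region (fold 4.30 and 4.09).

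TNFAIP3, which encodes the ubiquitin-editing protein A20 (chr6:137867214-137883314, + strand), had 4 and 5 H3K18bu regions and 5 and 7 H4K12bu regions. The marks did not share a place there. A shared H3K18bu region covered the start site at chr6:137866907-137867439 (fold 5.10 and 3.67), which also lies in the long non-coding gene WAKMAR2 on the other strand. The stretch printed above for TNFAIP3, with its 2 motif matches, lies inside this region. The other 2 shared H3K18bu regions lay downstream, the stronger at chr6:137891096-137891931 with a fold of 7.63 and 6.62. The 2 shared H4K12bu regions lay over exons inside the gene, 11887 and 13932 bp from the start site. The one at 11887 bp did not have q below 0.05 in both replicates. Replicates 1 and 2 also had 1 and 2 H4K12bu regions near the start site, which did not overlap each other.

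**Figure D2:**
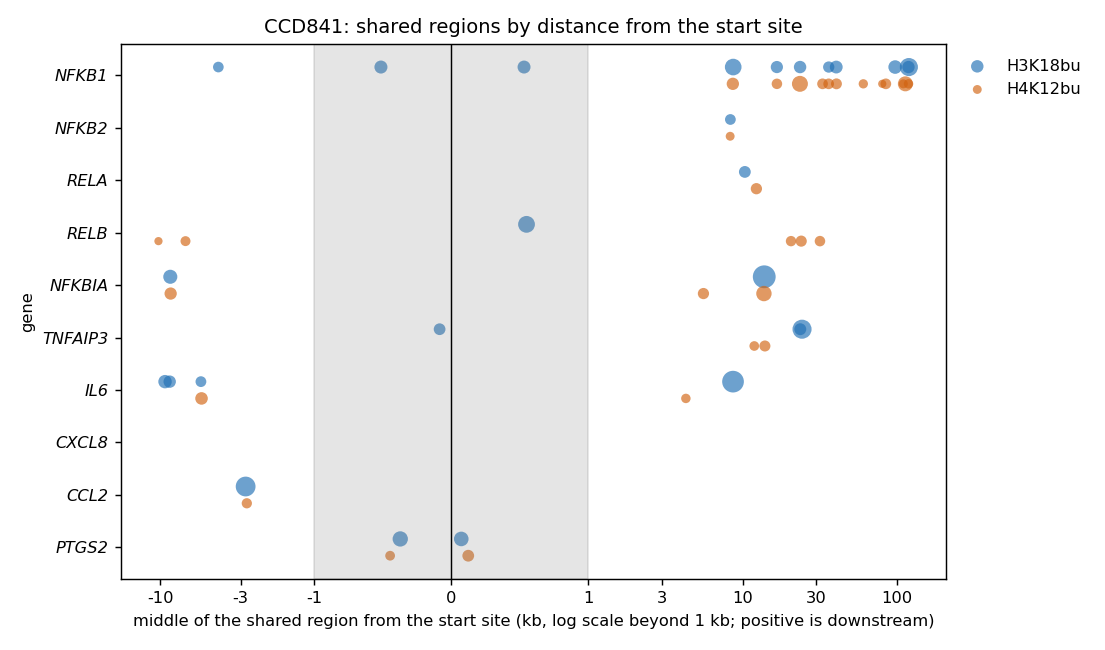
Distance of the middle of each shared region from the start site (x axis, kb, log scale beyond 1 kb) for each member in CCD841, with the grey band marking 1 kb on either side and larger points marking a higher mean fold. H3K18bu points of NFKB1, RELB, TNFAIP3 and PTGS2 fall in the band, and H4K12bu points only at PTGS2.

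Among the targets, PTGS2 was the gene with both marks at the start. PTGS2 encodes cyclooxygenase-2, the inducible enzyme of prostaglandin synthesis (chr1:186671791-186680922, - strand). Replicates 1 and 2 each held 2 H3K18bu regions, and 2 and 3 H4K12bu regions, and all shared regions lay within 1 kb of the start site. A first pair lay just downstream of the start site, at chr1:186680285-186680418 for H3K18bu (fold 6.65 and 4.25) and chr1:186680184-186680417 for H4K12bu (fold 4.32 and 4.47). A second pair lay upstream of the start site of the canonical transcript, at chr1:186680614-186680979 for H3K18bu (fold 6.24 and 5.19) and chr1:186680634-186681107 for H4K12bu (fold 3.93 and 3.36). Both regions of the second pair overlapped the annotated gene, which reaches chr1:186680922. They also lay over PACERR, a long non-coding gene on the other strand. The upstream H4K12bu region did not have q below 0.05 in both replicates. Of the 10 members, PTGS2 was the only one with a shared H4K12bu region at its start site. The 250 bases printed above for PTGS2 lie between the 2 pairs and reach into the second.

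IL6, the cytokine interleukin-6 (chr7:22725884-22732002, + strand), had more shared H3K18bu regions per length than any other member. Replicates 1 and 2 held 9 and 5 H3K18bu regions, and 6 and 4 H4K12bu regions. The 4 shared H3K18bu regions came to 1.53 per 10 kb, which placed IL6 at the 97.1 percentile of all genes, and the 2 shared H4K12bu regions to 0.766 per 10 kb, at the 68.7 percentile. No shared region lay at the start site, where only H3K18bu replicate 1 had a region. Of the shared H3K18bu regions, 3 lay 5435 to 9289 bp upstream inside the gene STEAP1B, so they cannot be assigned to IL6 alone. The strongest lay 8655 bp downstream at chr7:22735057-22736653, outside any annotated gene. Its fold of 9.39 and 6.81 included the highest fold of all shared regions of the members, and no shared H4K12bu region overlapped it. The H4K12bu regions were 1 in STEAP1B, over the H3K18bu region at 5435 bp, and 1 in an exon of IL6. The exon region did not have q below 0.05 in both replicates.

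CCL2, which encodes the monocyte chemoattractant MCP-1 (chr17:34255274-34257208, + strand), had 1 and 3 H3K18bu regions and 3 and 1 H4K12bu regions. The shared regions of both marks lay at the same place upstream, at chr17:34252244-34252750 for H3K18bu and chr17:34252493-34252599 for H4K12bu, about the same distance from the start site (2788 and 2739 bp). The H3K18bu fold was 6.79 and 7.98, with a pileup of 29 in both replicates. The H4K12bu fold was 4.68 and 2.97, with pileups of 15 and 5, and q was not below 0.05 in both replicates.

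CXCL8, the neutrophil chemokine interleukin-8 (chr4:73740519-73743716, + strand), was the member without shared regions. H3K18bu replicate 1 had 1 region, which lay at the start site (fold 4.58, pileup of 10), and replicate 2 had 0. H4K12bu had 0 in both replicates. Weaker peaks may be missing from the lists, so CXCL8 is not shown to lack either mark. Of its neighbours in the chemokine family, CXCL1 had 6 and 4 H3K18bu regions, of which 3 were shared and 2 lay at the start site, and 0 and 0 H4K12bu regions. CXCL2 had 1 and 2 H3K18bu regions, of which 1 was shared and lay at the start site.

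A stretch of 300 bases is shown for NFKBIA and for CCL2 because both marks were found in it, away from the start site, and it holds a match to the motif. Both are read on the forward strand of GRCh38, with the match in capitals: NFKBIA, chr14:35390805-35391104 (middle of the H3K18bu region), and CCL2, chr17:34252396-34252695 (centred on the H4K12bu region, and inside the H3K18bu region). At CCL2 the match lies in the H3K18bu region and outside the shorter H4K12bu region.
NFKBIA: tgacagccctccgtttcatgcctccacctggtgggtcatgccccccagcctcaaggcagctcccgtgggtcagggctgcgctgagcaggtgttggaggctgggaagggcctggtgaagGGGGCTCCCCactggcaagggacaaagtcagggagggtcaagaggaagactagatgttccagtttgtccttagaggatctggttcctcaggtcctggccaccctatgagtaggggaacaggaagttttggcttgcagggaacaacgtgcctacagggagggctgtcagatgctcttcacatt
CCL2: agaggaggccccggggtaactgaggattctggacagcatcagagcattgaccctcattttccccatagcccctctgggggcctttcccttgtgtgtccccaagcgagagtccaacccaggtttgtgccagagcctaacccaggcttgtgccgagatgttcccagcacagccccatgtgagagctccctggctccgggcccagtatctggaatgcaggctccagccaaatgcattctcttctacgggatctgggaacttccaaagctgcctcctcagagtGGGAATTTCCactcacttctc

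A window of 300 bases was centred on every shared region, and it reached past the ends of the shorter ones. For the members, 4 of 26 H3K18bu windows (15.4%) and 4 of 29 H4K12bu windows (13.8%) held a match. Over all shared regions of CCD841, the shares were 5.03% of 108524 and 4.89% of 90463. The H3K18bu windows with a match were at NFKBIA, TNFAIP3 (2 windows) and PTGS2. The H4K12bu windows were at RELB, NFKBIA, CCL2 and PTGS2, and all but that of CCL2 had the match inside the region itself. The H3K18bu region of CCL2 and the upstream H4K12bu region of NFKBIA held a match outside their central 300 bases. Several of the windows are the same stretch found with both marks, so they are not independent, and a match is a description of letters and not a binding site.

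By place, 6 of the 26 shared H3K18bu regions of the members lay within 1 kb of the start site, 1 in another exon, 5 in introns, 6 upstream and 8 downstream. For H4K12bu, 2 of 29 lay at the start site, 7 in other exons, 10 in introns, 5 upstream and 5 downstream. Over all genes, 8.61% of the shared H3K18bu regions and 3.51% of the shared H4K12bu regions of the windows lay at a start site. The corresponding shares for the members were 23.1% and 6.90%, and for all genes with windows of at most 30 kb 22.1% and 8.45%. Of the shared H3K18bu regions, 13 overlapped a shared H4K12bu region. All 26 H3K18bu regions had q below 0.05 in both replicates, as did every listed H3K18bu region, and 21 of the 29 H4K12bu regions did, where 100% and 54.7% of the listed regions of replicates 1 and 2 passed.

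The regulators were compared with the targets in the density of the marks. The classes are not distinct, since the inhibitor genes NFKBIA and TNFAIP3 are also targets of NF-kB. In H3K18bu, the 6 regulators had 0.612 shared regions per 10 kb and the 4 targets 0.697, against 0.476 over all genes. By replicate, all regions came to 1.29 and 1.32 per 10 kb for the regulators and 1.30 and 0.996 for the targets. The values overlapped, and the order turned with the replicate and with the overlap asked of a shared region. In H4K12bu, the regulators had 0.773 and the targets 0.498 shared regions per 10 kb, against 0.511 over all genes. All H4K12bu regions came to 1.71 and 2.06 per 10 kb for the regulators and 1.10 and 0.797 for the targets. The regulators were higher in both replicates, although counted over the gene bodies alone the targets were higher. These densities pool the windows, so long genes weigh more. NFKB1 alone held 11 of the 19 shared H3K18bu regions and 12 of the 24 shared H4K12bu regions of the regulators, and IL6 held 4 of the 7 shared H3K18bu regions of the targets. The median over genes was 0.580 for the regulators and 0.571 for the targets in H3K18bu, the other order than in the pooled densities. In H4K12bu it was 0.718 and 0.571. Members are not replicates of a condition and no test was made of either difference.

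**Figure D3:**
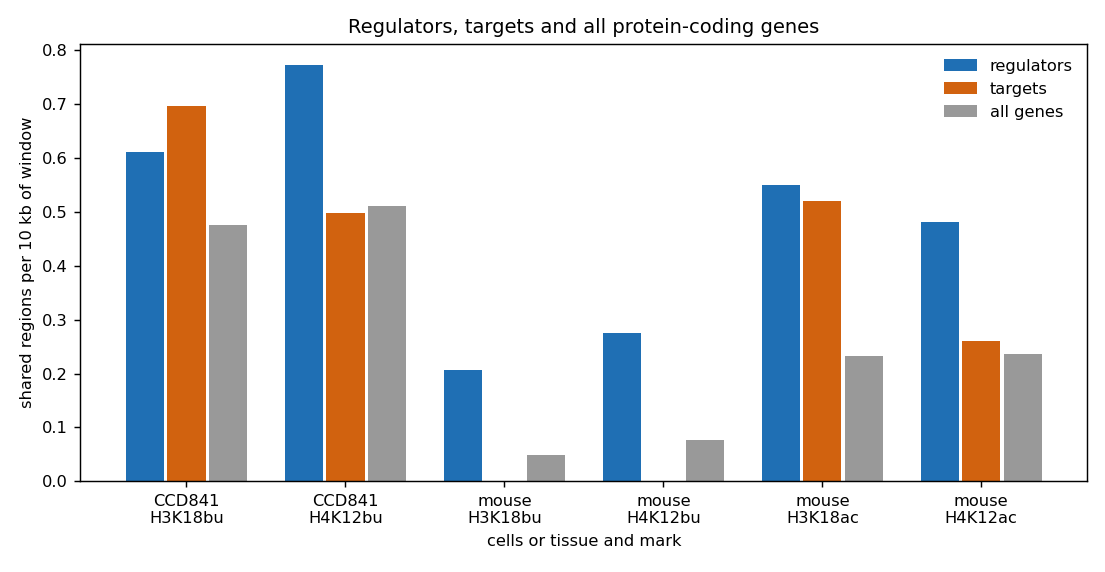
Shared regions per 10 kb of window (y axis) for the regulators, the targets and all protein-coding genes, by cells or tissue and mark (x axis). The mouse targets stand at 0 for both butyryl marks, where the regulators stand at 0.207 and 0.276.

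The wider pathway was described from a list of 32 further genes. In CCD841, 29 of them had a shared H3K18bu region (75.9% of all genes) and 25 a shared H4K12bu region (76.6% of all genes), or 0.65 and 0.732 shared regions per 10 kb. By role, H3K18bu was shared at 4 of 5 receptors, 9 of 10 adaptors and kinases, 5 of 6 other subunits and inhibitors and 11 of 11 other targets. For H4K12bu the counts were 4 of 5, 9 of 10, 6 of 6 and 6 of 11. TLR4, the receptor for lipopolysaccharide, had 0 and 0 H3K18bu regions and 0 and 5 H4K12bu regions, none shared. TNIP1, which encodes a partner of A20, had 22 and 24 H3K18bu regions and 31 and 25 H4K12bu regions, of which 16 and 13 were shared. CSF2, the cytokine GM-CSF, had 9 and 8 H3K18bu regions with 5 shared. Among the other targets, TNF had 3 shared H3K18bu regions and 1 shared H4K12bu region, and IL1B had 3 and 0. The genes without a shared H3K18bu region were TLR4, IRAK1 and NFKBIE. Those without a shared H4K12bu region were TLR4, IKBKG and, among the targets, IL1B, CXCL1, CXCL2, ICAM1 and VCAM1. IKBKG, the regulatory subunit of the IkB kinase, has a near-identical copy in the genome, so its value is uncertain. At the start site, 12 of the 32 genes had a shared H3K18bu region, against 32.7% of all genes, and 1, the deubiquitinase gene CYLD, had a shared H4K12bu region, against 14.9%.

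The label of CCD841 as epithelial was set beside marker genes. Shared H3K18bu regions were found at 6 of 8 epithelial, 8 of 8 mesenchymal and 6 of 6 leukocyte markers, against 75.9% of all genes, and shared H4K12bu regions at 4 of 8, 7 of 8 and 4 of 6, against 76.6%. Among the epithelial markers, KRT18, KRT20, CDX2 and CLDN7 have windows of at most 30 kb. Of all genes with such windows, 56% had a shared H3K18bu region and 55.4% a shared H4K12bu region. Per length, the epithelial markers had 0.605 shared H3K18bu regions and 0.266 shared H4K12bu regions per 10 kb, and the mesenchymal markers had 0.721 and 0.7. Over all genes these densities were 0.476 and 0.511. CDH1, KRT20, CDX2 and CLDN7 had no shared H4K12bu region, and EPCAM and VIL1 had 1 each and lay below the density of all genes. KRT8 had 7 (0.962 per 10 kb) and KRT18 had 2 (0.832 per 10 kb), both above it. Of the mesenchymal markers, TWIST1 had no shared H4K12bu region, and COL3A1, THY1 and VIM also lay below that density. COL1A1, COL1A2, PDGFRB and FN1 lay above it. Whether the windows of different markers overlap, so that the same region counts at several of them, was not checked. Both lists thus held genes above and below the H4K12bu density of all genes, and the difference between the lists was not tested. The epithelial label is used here only as it was given. In the mouse tissue, shared H3K18bu regions were found at 7 of 8 epithelial, 1 of 8 mesenchymal and 1 of 6 leukocyte markers, against 20.5% of all genes, and shared H4K12bu regions at 5 of 8, 3 of 8 and 0 of 6, against 33.7%. For H3K18ac the counts were 8 of 8, 2 of 8 and 3 of 6, against 58.7%, and for H4K12ac 6 of 8, 4 of 8 and 4 of 6, against 61.4%. Ptprc, the common leukocyte antigen, had 0 and 3 H3K18bu regions, 0 and 5 H4K12bu regions, 11 and 34 H3K18ac regions and 42 and 79 H4K12ac regions. The leukocyte marker with shared H3K18bu regions was Itgam, with 6 and 9 regions, of which 2 were shared. The part of cell composition in the mouse counts below was not tested.

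In the mouse, shared butyryl regions were found at regulators and at none of the 3 targets. Shared H3K18bu regions lay at 3 of 9 members, Rela, Relb and Tnfaip3, against 20.5% of all genes. Shared H4K12bu regions lay at 4 of 9, Nfkb1, Rela, Relb and Tnfaip3, against 33.7%. Il6, Ccl2 and Ptgs2 have windows of at most 30 kb, and of all such genes 10.5% had a shared H3K18bu region and 21.8% a shared H4K12bu region. Of the 6 shared H3K18bu regions, 4 had a pileup of 1 in both replicates, and of the 8 shared H4K12bu regions, 7 had a pileup of 1 in at least 1. None had q below 0.05 in both replicates, and in these libraries 1.47% to 2.33% of all regions passed.

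In the full lists, the acetyl marks were found at more members. Shared H3K18ac regions lay at 8 of 9, all but Rela, against 58.7% of all genes, and shared H4K12ac regions at 6 of 9, all but Nfkbia, Il6 and Ccl2, against 61.4%. Among genes with windows of at most 30 kb these shares were 38.6% and 39.2%. The Kac lists are longer than the Kbu lists, so these counts are not a comparison of the marks. With the same number of strongest regions by p in each library, shared H3K18ac regions lay at 5 members and shared H4K12ac regions at 2. Shared H3K18bu and H4K12bu regions then lay at 2 members each.

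Relb held the place most often found. A region at chr7:19615132-19615355 (mm10), inside the gene, was shared by the H3K18bu replicates with a pileup of 2 in both, and an overlapping one by the H4K12bu replicates with 2 and 3. The H3K18ac replicates shared it with pileups of 5 and 5 (fold 4.70 and 4.52) and the H4K12ac replicates with 3 and 7 (fold 3.30 and 6.34). All 8 mouse libraries thus listed a peak there. A second region of Relb, at chr7:19628380-19628924 near a gene end, was shared in H3K18bu with a pileup of 2 in both replicates. The regions of Relb at chr7:19634737-19635116 and near chr7:19599826-19600046 overlapped the neighbours Clptm1 and Clasrp.

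At Tnfaip3, on the reverse strand of chromosome 10, a region near chr10:19008240-19008594, inside the gene, was shared in H4K12bu (pileups of 1 and 2), in H3K18ac (3 and 11) and in H4K12ac (4 and 3). An H3K18bu peak also overlapped the H3K18ac region, but it was not shared by the replicates. The 2 shared H3K18bu regions of Tnfaip3 lay 5877 and 324 bp downstream of the start site, each with a pileup of 1 in both replicates. At Rela, the shared H3K18bu region lay 370 bp downstream of the start site and the shared H4K12bu region 59 bp upstream, again with a pileup of 1 in every replicate. Nfkb1 had 9 shared H3K18ac regions and 6 shared H4K12ac regions, 2 shared H4K12bu regions and 0 shared H3K18bu regions. Nfkbia had 2 shared H3K18ac regions with pileups of 2 to 5, and 0 shared regions of the other 3 marks.

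The mouse targets differed in what they held. Ptgs2 had 0 butyryl regions in all 4 libraries, 4 and 7 H3K18ac regions and 11 and 15 H4K12ac regions. No peak behind its 3 shared acetyl regions had a pileup above 2. Il6 had 0 and 0 H3K18bu regions, 0 and 2 H4K12bu regions, 4 and 3 H3K18ac regions and 1 and 0 H4K12ac regions. Its shared H3K18ac region lay at the start site with pileups of 2 and 3, where the gene A230098N10Rik overlaps it. Ccl2 had 1 and 0 H3K18bu regions and 0 and 1 H4K12bu regions, 4 and 12 H3K18ac regions and 7 and 0 H4K12ac regions. Its 2 shared H3K18ac regions had a pileup of 1 in both replicates. Per length, the mouse regulators had 0.207 shared H3K18bu and 0.276 shared H4K12bu regions per 10 kb, and the targets 0 and 0, against 0.0488 and 0.0764 over all genes. Of the 32 further pathway genes, 9 had a shared H3K18bu region, 14 a shared H4K12bu region, 22 a shared H3K18ac region and 26 a shared H4K12ac region in the mouse, against 20.5%, 33.7%, 58.7% and 61.4% of all genes. Bcl3, which encodes an atypical IkB protein, had 8 and 6 H3K18bu regions and 7 and 15 H4K12bu regions, with 2 shared for each mark. Of the 11 other targets, 2 had a shared H3K18bu region, Ccl20 and Birc3, so the 0 of 3 among the member targets is not a pattern of all targets. Over the member regulators and targets, the H3K18ac densities were 0.551 and 0.520, against 0.233 over all genes, and the H4K12ac densities 0.482 and 0.26, against 0.237. The H3K18ac order turned without replicate 1 and against the cytokines alone. That of H4K12ac turned without replicate 2 and in the gene alone.

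To compare Kbu with Kac libraries of unequal length, the 50645 strongest regions of each mouse library, ranked by p, were counted at every gene. Regions of equal p were ordered at random with a fixed seed, and Kbu regions with a pileup of 1 often have equal p. The counts thus rest in part on 1 random draw, and other draws were not run. At Rela, H4K12bu replicate 2 went from 10 listed regions to 2. Rela had 4, 2, 4 and 2 regions in the Kbu libraries (3.00 ± 1.15, SD, n = 4) and 0, 2, 1 and 0 in the Kac libraries (0.750 ± 0.957, SD, n = 4), listed as H3K18 replicates 1 and 2 and then H4K12 replicates 1 and 2. The groups touched at 2, and the difference was 2.25 regions (two-sided exact permutation test over 70 assignments, p = 0.0857, Benjamini-Hochberg adjusted p = 1). This was the largest difference among the members in these regions. With all listed regions Rela had means of 5.25 in the Kbu and 5 in the Kac libraries, and the largest difference was that of Nfkb1, with 14.25 and 28.25, where the Kac lists are also the longer ones. Nfkb2 had 1, 4, 6 and 0 regions in the Kbu libraries and 3, 2, 0 and 0 in the Kac libraries, a difference of 1.5 (exact permutation p = 0.457, adjusted p = 1). Il6 had 0 in all 4 Kbu libraries and 1, 1, 1 and 0 in the Kac libraries, a difference of -0.75 (exact permutation p = 0.143, adjusted p = 1).

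The other members differed by at most 0.5 regions. Nfkb1 had 5, 11, 9 and 10 regions in the Kbu libraries and 9, 9, 6 and 9 in the Kac libraries, and Relb had 4, 4, 5 and 2 against 4, 6, 4 and 2. Tnfaip3 had 4, 5, 3 and 1 against 2, 7, 2 and 1. Nfkbia had 1, 2, 2 and 1 against 0, 3, 3 and 0, and Ccl2 had 1, 0, 0 and 1 against 1, 0, 0 and 0. In each of these genes the groups overlapped. Ptgs2 had 0 among these regions in all 8 libraries and was not tested.

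**Figure D4:**
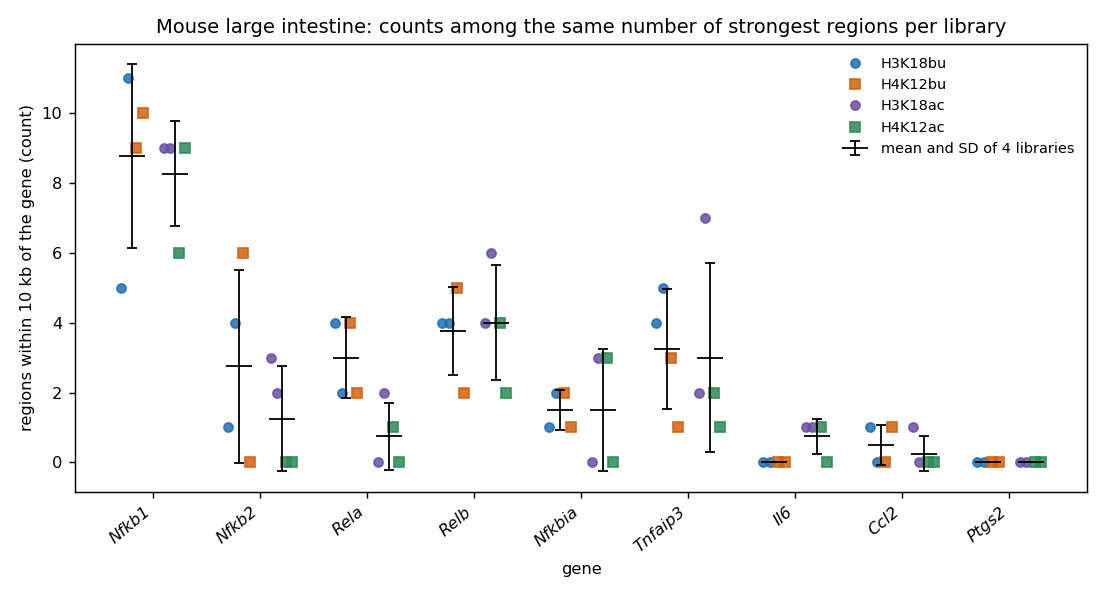
Regions within 10 kb of each member (y axis, count) among the 50645 strongest regions of each mouse library, by mark, with the mean and SD of the 4 Kbu libraries on the left and the 4 Kac libraries on the right of each gene. The Kbu and Kac points overlap or touch at every member, and Ptgs2 stands at 0 in all 8.

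Over all 19853 genes with a region in any library, 0 passed an adjusted p of 0.05 by this test, and 203 had an unadjusted p below 0.05. At none of the members did the 2 groups of libraries stand apart. Of all genes tested, 0.62% had every Kbu count above every Kac count and 0.403% the reverse. The smallest p that 4 against 4 libraries allow is 0.0286, which passes the adjustment only where most genes reach it, and the members' counts are not shown to be alike.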

How the data were processed

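The 10 genes, the pathway list and the marker lists were chosen with earlier results of these data known. Per the labels and the submitters' processing notes, reads were handled with bcl2fastq 2.17.1, cutadapt 1.9.1, Bowtie2 2.3.1 and MACS2 2.1.0 on hg38 and mm10. The authors deposited 1 peak list per library, with a fold ratio over the local background and the −log10 of p and q, which were used as given. Read depth is not in the lists. The pileup was solved from fold and p, and peaks of a library that overlapped were merged. Human genes and start sites came from GENCODE v44, and mouse genes from RefSeq (GRCm38.p6). Where no mouse promoter entry gave a start site, 1 kb around either gene end was used. Genes were taken with 10 kb on each side. The promoter of 1 member is not reported here. Counts per gene in mouse Kbu and Kac libraries were compared by a two-sided exact permutation test with Benjamini-Hochberg adjustment over all genes, in Python 3.11.15 (scipy 1.17.1 for the Poisson tail, pandas 2.3.3 for tables, numpy 2.4.6). Overlap counting, the pileup solution and the permutation test were tested on simulated data. P-values measure only the spread between these libraries, which may be technical. The genes named are the 10 members and genes of the pathway and marker lists, of which those singled out were picked after their values were seen. Alternatives covered the peak threshold, the overlap, the window, the replicates and the measure.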

Additional observations from a re-analysis of the deposited data

Results flagged for a closer look

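Among the 50645 strongest regions of each mouse library, 1 of 4 libraries stood apart in the Kac group at 4 members, as judged by its gap to the nearest other library. Nfkb1 had 6 regions in its lowest Kac library, H4K12ac replicate 1, against 9 in each of the other 3. Tnfaip3 had 7 in its highest, H3K18ac replicate 2, against 2 in the next. Il6 had 0 in H4K12ac replicate 2 against 1 in the others, and Ccl2 had 1 in H3K18ac replicate 1 against 0. For Il6 and Ccl2 the gap is a single region. Of 18 groups of 4 looked at, chance alone marks about 1 in 20 for continuous values, a rate that does not hold for small tied counts such as these.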

How the results depend on the processing

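Of 108 alternatives, the count of members with a shared region stayed within 1.5 times its value in 28 and moved in 20. The difference between regulators and targets changed by less than the SD of the 2 replicates, which is wide, in 31 and turned its direction in 7, and of the other 16 values, 6 are in another unit (percent of the window covered) and kept their sign, and the test of mouse counts gave the same number of calls in 6. The cause was not tested, apart from what follows from fewer peaks or bases being counted.

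The number of members with a shared region changed as follows. In CCD841 (9 members for each mark), the gene body alone gave 4 for H3K18bu and 5 for H4K12bu, and the start site 4 and 1. For H4K12bu, q below 0.05 gave 7, as did the same number of strongest regions in each library. In the mouse, q below 0.05 gave 0 for H3K18bu, 0 for H4K12bu, 2 for H3K18ac and 0 for H4K12ac. A pileup of at least 2 gave 1 for each butyryl mark. With the same number of strongest regions in each library, H4K12bu had 2, H3K18ac 5 and H4K12ac 2. Within 1 kb of either gene end, H4K12bu had 2, H3K18ac 2 and H4K12ac 3, and the gene alone gave 5 for H3K18ac. A single replicate, which needs no overlap, gave 6 to 7 members for H3K18bu and 6 to 8 for H4K12bu.

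The difference in shared regions per 10 kb, regulators minus targets, was -0.0852 for H3K18bu in CCD841. It became 0.0144 when a larger part of the shorter region had to overlap (0.5 of it), -0.508 in the gene alone and -0.00630 to 0.325 with a single replicate, where the positive value was that without replicate 1. For H4K12bu (0.275) it became -0.631 in the gene alone and 0.612 to 1.27 with a single replicate, and 0.413 at q below 0.05. In the mouse, H3K18bu (0.207) went to 0 at q below 0.05, 0.0689 at a pileup of at least 2, 0.103 with the larger overlap, 0.294 in the gene alone and 0.903 to 0.964 with a single replicate. H4K12bu (0.276) went to 0 at q below 0.05, 0.0344 at a pileup of at least 2, 0.103 with the same number of strongest regions, 0.172 with the larger overlap and 0.999 to 1.71 with a single replicate. H3K18ac (0.0311) went to 0.103 at q below 0.05, 0.421 at a pileup of at least 2, 0.0767 with the same number of strongest regions, 0.222 with the larger overlap, 0.173 in the gene alone, -0.0645 against the cytokines alone and to -0.690 to 0.128 with a single replicate, and was negative without replicate 1. H4K12ac (0.222) went to 0 at q below 0.05, 0.0689 with the same number of strongest regions, 0.482 at a pileup of at least 2 and against the cytokines alone, -0.0620 in the gene alone and to -0.438 to 0.599 with a single replicate, and was negative without replicate 2. As percent of the window covered, the differences were -1.88 and 1.99 for H3K18bu and H4K12bu in CCD841, and 0.762, 0.931, 0.697 and 0.206 for H3K18bu, H4K12bu, H3K18ac and H4K12ac in the mouse.

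The exact permutation test of mouse Kbu against Kac counts called 0 genes after adjustment in all 6 alternatives run. With the replicate block it called 0, and the smallest p it allows is 0.125. Whether replicate numbers mark shared animals is not known, and libraries were taken as unpaired: deviations of same-numbered libraries correlated at -0.0605 to 0.0248 across genes over 6 pairs of marks. Unadjusted, 863 genes passed 0.05 by bases covered, 6276 with all listed peaks (among them Ptgs2, higher in the longer Kac lists) and 2583 at q below 0.05 (among them Nfkb1 and Relb, both higher in the Kac libraries). Without replicate 1 or 2 the smallest p is 0.333. Read depth is not in the lists, and mouse Kbu regions with a pileup of 1 limit what can be compared.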
